A study of Rattus norvegicus with 6 samples.

Results

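The transcripts described here encode 8 signalling enzymes and enzyme subunits: the adenylyl cyclases Adcy2 and Adcy4, the phosphodiesterase Pde3a, the cAMP-activated exchange factor Rapgef3 (Epac1), the phospholipase Plcb2, and the PI3K subunits Pik3cg, Pik3r1 and Pik3r6. They were picked by gene symbol from the 2125 genes of the deposited tables, and each symbol matched 1 row, so all 8 were found. Gene expression had been measured by RNA sequencing of total RNA in 2 groups of 3 libraries from primary dorsal root ganglion cultures. The donors were Sprague Dawley rats of 120 g, and all ganglia were used. The control group had no treatment, and the other group was kept in 5 mM lidocaine hydrochloride, a sodium channel blocker used as a local anaesthetic, for 24 hours. Both groups grew in neurobasal medium with B-27 supplement.

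Adenylyl cyclases make the second messenger cAMP when a heterotrimeric G protein is activated by its receptor, and phosphodiesterases degrade it. cAMP acts through protein kinase A and through Epac proteins, which load the small GTPase Rap1 with GTP. Phospholipase C beta cleaves the membrane lipid PIP2 into inositol trisphosphate and diacylglycerol, whereas PI3Ks phosphorylate the same lipid to PIP3, which recruits Akt and other effectors. In sensory neurons cAMP and phospholipase C signalling are known for sensitising nociceptors, and PI3K gamma is known mainly from leukocytes.

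Both tables hold only genes that the authors had selected as changed on these same libraries. In the authors' deposited table the log2 fold changes are 1.00 or more in size and no p-value is above 0.0499. A call for any listed gene, these 8 included, is therefore no independent evidence, and the values below are given as a description of size, spread and order. The same selection can make fold changes too large and errors and intervals too narrow, by an amount that was not tested. Whole reads recovered from the normalized values numbered 2453051 to 3592141 per library over the listed genes, which is a part of each library. Nothing in the labels ties the replicates to separate animals or cultures, so p-values measure the spread between these libraries, which may be technical. The labels call the cells neurons, and the control libraries also carried transcripts of macrophages, glia, fibroblasts and vessels. None of 20 sensory neuron markers was among the listed genes. These hold only genes selected as changed, so the level of the neuron markers is not known here. In such bulk samples, fewer cells of a type and less RNA per cell cannot be told apart.

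All 8 transcripts were lower with lidocaine. The log2 fold changes ran from −3.78 for Pik3cg to −1.01 for Adcy4, with a median of −1.58, beside a median of −1.25 over the 1851 genes kept (those whose normalized reads averaged 10 or more over the 6 libraries) and −1.59 over the kept genes that were lower. All 8 passed the threshold of an adjusted p of 0.05 (limma, Benjamini-Hochberg over all genes kept), as did 99.5% of the genes kept, 68.6% of them as lower. The lidocaine libraries lay below all control libraries for all 8, and for 67.6% of the genes kept. When the p-values were adjusted for 47357 genes, the size of a rat reference annotation, 7 of the 8 and 54.2% of the genes kept were called lower, and Plcb2 was not (adjusted p = 0.108, limma). The 95% interval of the log2 fold change lay wholly below −1 for Pde3a, Rapgef3, Pik3cg, Pik3r1 and Pik3r6, which makes 5 of the 8, and for 40.1% of the genes kept.

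**Figure D1:**
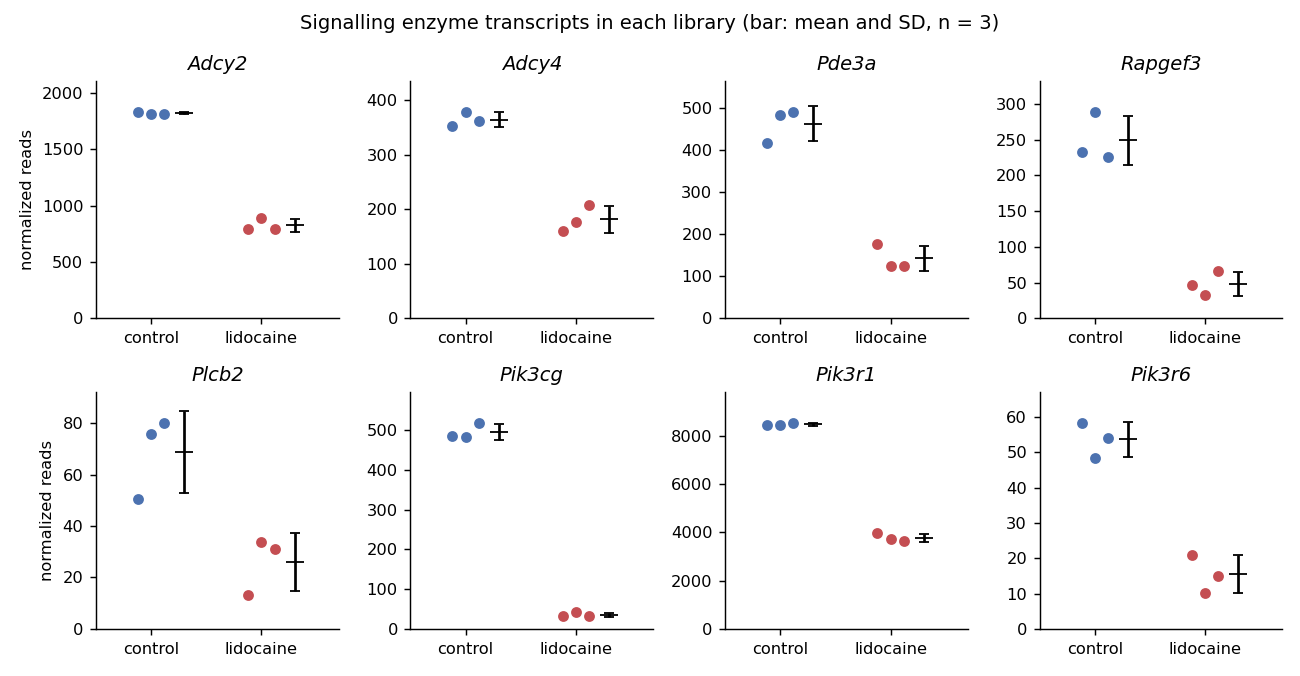
Normalized reads (vertical axes, linear and starting at 0, with a scale of their own in each panel) of the 8 transcripts in the control (blue) and lidocaine (red) libraries, 1 point per library, with the mean and SD (n = 3) as a bar. In each panel the lidocaine points lie below the control points, and the gap is widest relative to the level for Pik3cg, at 485, 484 and 519 against 32, 42.1 and 32.1.

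Among the enzymes that make cAMP, Adcy2 was the more abundant. It is a cyclase that G protein beta-gamma subunits stimulate in the presence of activated Gs. Adcy2 (ENSRNOG00000032150) gave 1833, 1818 and 1817 normalized reads in the control libraries and 789, 894 and 792 in the lidocaine libraries. The controls lay within a narrow band and the second lidocaine library was the highest of its group. The log2 fold change was −1.15 ± 0.07 (SE, n = 3 per group; limma, adjusted p = 8.50e-08), a 2.21-fold fall. Adcy4 (ENSRNOG00000020401), a cyclase of the same subfamily that is known from endothelium, gave 352, 379 and 363 normalized reads in control and 160, 177 and 209 with lidocaine. The groups did not overlap, and the fall of 2.01-fold (log2 fold change −1.01 ± 0.12, SE; limma, adjusted p = 2.33e-05) was the smallest of the 8. It lies just inside the authors' selection limit.

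Pde3a (ENSRNOG00000025042), a phosphodiesterase that hydrolyses cAMP and is inhibited by cGMP, is known for its role in smooth muscle, heart and platelets. It gave 417, 483 and 491 normalized reads in control and 177, 124 and 125 with lidocaine. The first library was the lowest of the controls and the highest of the lidocaine group. Pde3a fell 3.28-fold (log2 fold change −1.71 ± 0.15, SE; limma, adjusted p = 2.49e-06). Rapgef3 (ENSRNOG00000059961), the Epac protein that exchanges GDP for GTP on Rap1 when cAMP binds it, gave 233, 289 and 226 normalized reads in control and 46, 32.7 and 66.2 with lidocaine. The third lidocaine library was the highest of its group, yet all lay far below the controls. The fall was 5.24-fold (log2 fold change −2.39 ± 0.25, SE; limma, adjusted p = 7.71e-06), the second largest of the 8.

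Plcb2 (ENSRNOG00000058337), the phospholipase C isozyme that Gq proteins and beta-gamma subunits activate and that is prominent in blood cells, rested on few reads. The control libraries gave 50.6, 75.8 and 80.2 normalized reads and the lidocaine libraries 13, 33.7 and 31.1, from 58 to 80 and from 13 to 36 recovered reads. The first library was the lowest of both groups. Plcb2 fell 2.74-fold with the widest error of the 8 (log2 fold change −1.46 ± 0.38, SE; limma, adjusted p = 0.00423). Without lidocaine replicate 1 the log2 fold change was −1.04.

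The PI3K subunits held both the most abundant of the 8 transcripts and the one that fell most. Pik3cg (ENSRNOG00000009385) encodes p110 gamma, the class IB catalytic subunit that beta-gamma subunits activate downstream of chemoattractant receptors. It gave 485, 484 and 519 normalized reads in control and 32, 42.1 and 32.1 with lidocaine, a 13.8-fold fall (log2 fold change −3.78 ± 0.15, SE; limma, adjusted p = 7.43e-09). Only 71 of the 1851 genes kept had a lower log2 fold change than Pik3cg, which stood at rank 72 from the lowest. Pik3r6 (ENSRNOG00000003992) encodes p84, a regulatory subunit that binds p110 gamma. It gave 58.4, 48.5 and 54.1 normalized reads in control and 21, 10.3 and 15.1 with lidocaine, and the lidocaine values came from 11 to 21 recovered reads. Pik3r6 fell 3.44-fold (log2 fold change −1.78 ± 0.32, SE; limma, adjusted p = 0.000406). The subunits of the class IB complex thus both fell, from levels that differed.

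Pik3r1 (ENSRNOG00000018903) encodes p85 alpha, the regulatory subunit that stabilises the class IA catalytic subunits and docks them on phosphorylated receptors. It was the most deeply covered of the 8, with 8431, 8430.2 and 8542 normalized reads in control and 3960, 3723 and 3636 with lidocaine. The spread within each group was small beside the gap between them. Pik3r1 fell 2.25-fold, with the smallest error of the 8 (log2 fold change −1.17 ± 0.04, SE; limma, adjusted p = 5.25e-09).

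**Figure D2:**
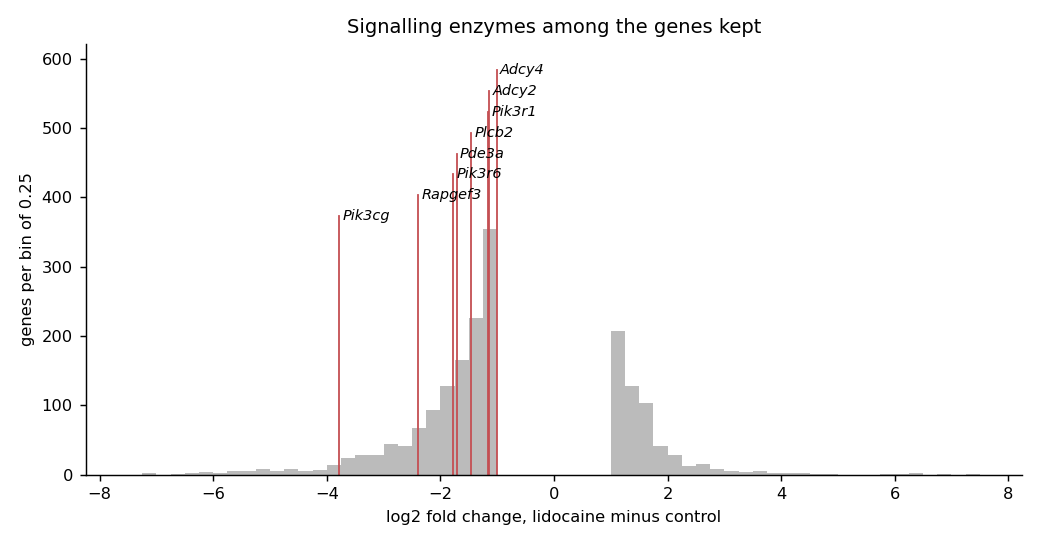
Number of genes kept (vertical axis) by log2 fold change, lidocaine minus control (horizontal axis, bins of 0.25), with a red line at each of the 8 transcripts. No gene lies near 0 because the authors listed only genes past their fold limit. Pik3cg at −3.78 and Rapgef3 at −2.39 lie in the lower tail, and Adcy2, Adcy4 and Pik3r1 lie next to the gap.

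Levels were compared between genes on the FPKM scale, which divides by gene length. In control, Pik3r1 was highest at 41.8 ± 0.401 FPKM, followed by Adcy2 at 11.6 ± 0.0170, Pde3a at 2.77 ± 0.251 and Adcy4 at 2.19 ± 0.0861 (SD, n = 3 each). Pik3cg at 1.56 ± 0.0668 FPKM and Rapgef3 at 1.51 ± 0.214 overlapped with each other, as did Plcb2 at 0.396 ± 0.0936 and Pik3r6 at 0.343 ± 0.0292 (SD, n = 3 each). With lidocaine, Pik3r1 at 18.9 ± 0.884 FPKM and Adcy2 at 5.35 ± 0.402 stayed first and second in this order (SD, n = 3 each). Adcy4 at 1.11 ± 0.145 FPKM and Pde3a at 0.861 ± 0.183 overlapped with each other. The ranges of Rapgef3 at 0.292 ± 0.106 FPKM, Plcb2 at 0.150 ± 0.0654, Pik3cg at 0.112 ± 0.0185 and Pik3r6 at 0.0962 ± 0.0338 each overlapped with that of the next (SD, n = 3 each). Pik3cg stood at rank 5 in control and at rank 7 with lidocaine.

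Ratios between 2 transcripts within a library do not depend on how the libraries are scaled. Relative to Pik3r1, the FPKM of Pik3cg was 0.0367, 0.0366 and 0.0388 in the control libraries and 0.00510, 0.00711 and 0.00555 in the lidocaine libraries. The groups lay far apart, with a change of −2.65 in the log2 ratio. Relative to its partner Pik3r6, Pik3cg stood at 4.10, 4.88 and 4.74 in control and at 0.774, 2.10 and 1.07 with lidocaine. The lidocaine libraries differed among themselves but stayed below the controls (change in the log2 ratio −1.97). Adcy2 relative to Pik3r1 was 0.281, 0.279 and 0.275 in control and 0.258, 0.311 and 0.282 with lidocaine, and these groups overlapped. The cyclase Adcy2 relative to the phosphodiesterase Pde3a was 4.69, 4.02 and 3.95 in control and 4.78, 7.72 and 6.76 with lidocaine, so the lowest lidocaine library lay just above the highest control.

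Over all 28 pairs of the 8 transcripts, the groups did not overlap in 15 pairs and overlapped in 13. The same count over pairs of other genes kept was not made, so no share stands beside it. All 7 pairs with Pik3cg were among the 15. The smallest p that an exact permutation test of 3 against 3 libraries can give is 0.1, which those pairs reached (two-sided; Benjamini-Hochberg adjusted over the 28 pairs, 0.187), so none could pass. Plcb2 overlapped between groups in each pair except that with Pik3cg. The pairs were chosen for comparison after the values had been seen.

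**Figure D3:**
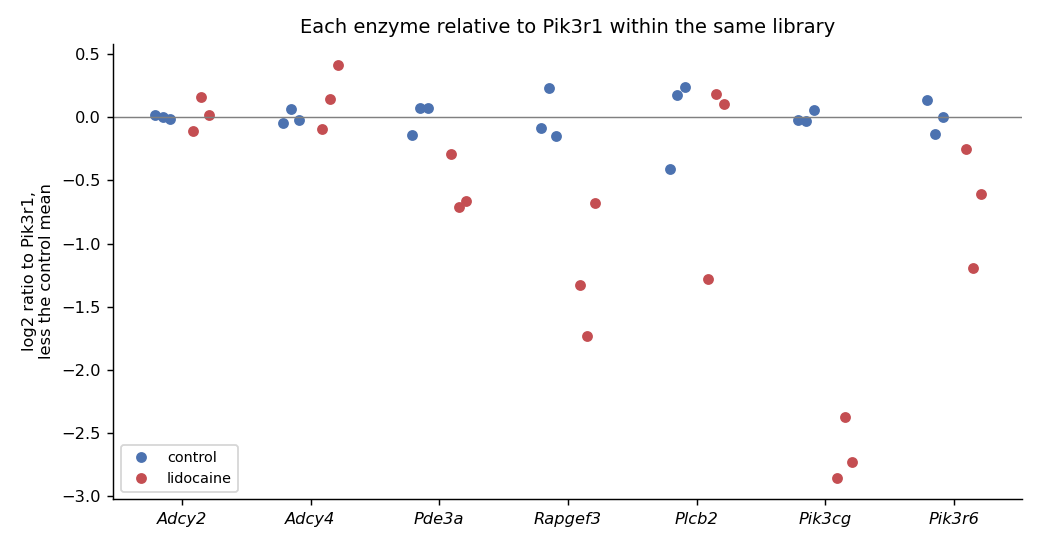
Log2 ratio of each transcript to Pik3r1 in the same library, less the mean of the control libraries (vertical axis), for control (blue) and lidocaine (red), 1 point per library. Pik3cg lies lowest with lidocaine, Rapgef3, Pde3a and Pik3r6 lie below their controls, and the groups overlap for Adcy2, Adcy4 and Plcb2.

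The direction for the smaller falls depended on the scale. A trimmed mean or a median of ratios, both computed on the listed genes alone and so centred on genes that mostly fell, raised all log2 fold changes by a median of 1.26 and 1.17. On these scales Adcy2 turned to 0.13 and 0.04, Adcy4 to 0.26 and 0.17, and Pik3r1 to 0.11 and 0.02, none of which passed (limma, adjusted p from 0.0672 to 0.802). Pik3cg (−2.52 and −2.61), Rapgef3 (−1.13 and −1.22) and Pde3a (−0.44 and −0.53) were still called lower, which makes 3 of the 8 on both scales, beside 26.6% and 29.7% of the genes kept. Of all genes called on these scales, 43.8% and 48.2% were lower, against 68.9% on the deposited scale. Plcb2 and Pik3r6 were below 0 but did not pass (limma, adjusted p from 0.116 to 0.680). The scale of all measured genes was not analysed here, since the tables hold selected genes.

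**Figure D4:**
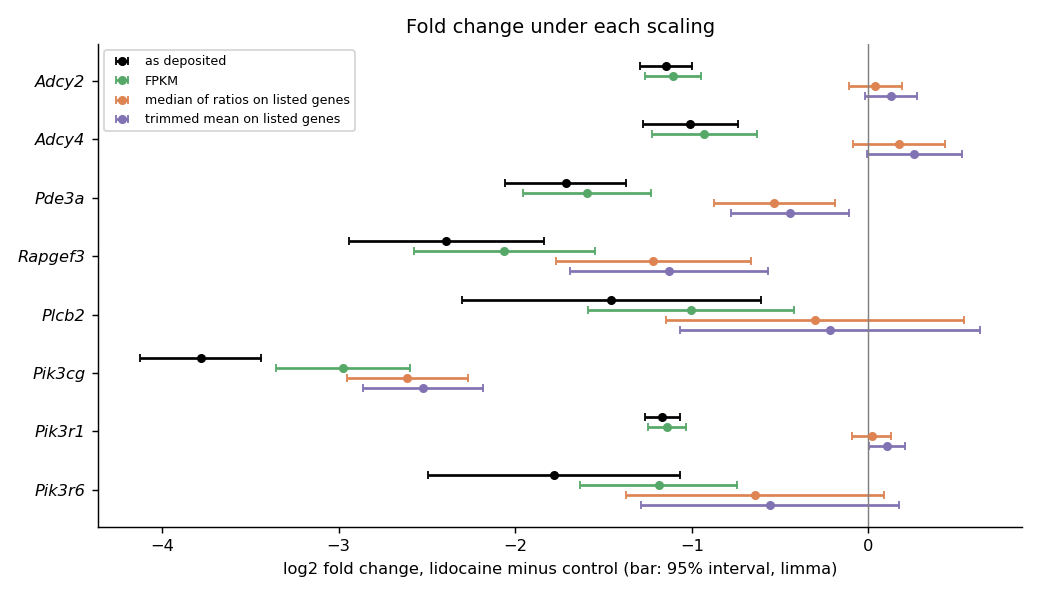
Log2 fold change, lidocaine minus control (horizontal axis), with its 95% interval from limma (n = 3 per group) for each transcript under the deposited scale (black), FPKM (green) and the 2 rescalings on the listed genes (orange and purple). Pik3cg, Rapgef3 and Pde3a stay below 0 under all 4, while Adcy2, Adcy4 and Pik3r1 move from about −1 to about 0.

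Other genes of these pathways were read from 9 lists of 187 genes, which also hold the 8. Of the 179 others, 20 were in the deposited tables, 19 were kept, 16 were called lower and 3 higher, with a median log2 fold change of −1.15, beside −1.25 over all genes kept. The directions of 10 of the 19 turned under the trimmed mean and of 9 under the median of ratios. These rescalings raised log2 fold changes by a median of 1.26 and 1.17. A fall smaller than that shift turns in any gene, so a turn named below tells only that the fall was small. The count of 16 and each count per list below stand beside 68.6% of all genes kept called lower. The counts per list below include the 8. The remaining genes of the lists have no values in these tables and were not analysed here.

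Among 10 adenylyl cyclases 3 were listed and all were called lower on the deposited scale, beside 68.6% of the genes kept. Under both rescalings all 3 turned, to log2 fold changes between 0.03 and 0.26. The third is Adcy10, the soluble cyclase that bicarbonate stimulates, at 86.2 ± 19.3 normalized reads in control and 38.7 ± 7.07 with lidocaine (SD, n = 3 each). The phosphodiesterases moved both ways. Of 24 genes 5 were listed, and 2 were called lower and 2 higher. Pde4b, a cAMP-specific enzyme, had 1055 ± 87.1 normalized reads in control and rose to 2564 ± 106 with lidocaine (SD, n = 3 each; log2 fold change 1.28, limma, adjusted p = 5.98e-08), and Pde4c rose from 35.3 ± 9.04 to 73.7 ± 15.8. Pde7b fell from 388 ± 48.8 to 173 ± 19.3, but turned higher under both rescalings. Pde6c, a cone photoreceptor enzyme, did not pass the filter on low reads. Among the cAMP effectors, Prkar2b, a regulatory subunit of protein kinase A, stood at 6093 ± 289 normalized reads in control and fell to 2741 ± 165 (SD, n = 3 each), but turned higher under both rescalings.

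Plcb2 was the only one listed of 15 phospholipase C isozymes. Of 28 genes downstream of phospholipase C, 4 were listed. Rasgrp3, a diacylglycerol-responsive Ras and Rap exchange factor, fell 4.75-fold. Dgki, a diacylglycerol kinase, stood at 4087 ± 432 normalized reads in control and fell to 1538 ± 98.8 (SD, n = 3 each). Its log2 fold change was only −0.13 under the trimmed mean and −0.22 under the median of ratios. Dgkk, another diacylglycerol kinase, rose from 26.2 ± 0.98 to 55.3 ± 12.5 normalized reads. Of 30 G protein subunit genes only Gna15, an alpha subunit of the Gq class, and Gngt2, a gamma subunit, were listed, and they fell 2.62-fold and 5.51-fold. Both rested on few recovered reads with lidocaine, 27 to 31 for Gna15 and 10 to 16 for Gngt2. Under the trimmed mean and the median of ratios Gna15 was at −0.15 and −0.23, and Gngt2 at −1.24 and −1.32.

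Pik3cg, Pik3r1 and Pik3r6 were the only ones listed of 14 PI3K subunit genes. Of 27 genes acting beside or downstream of PI3K, 7 were listed. All 7 were called lower, beside 68.6% of the genes kept. Their median was −1.17, beside −1.25 over all genes kept, and 5 turned higher under the trimmed mean. Prex2, a PIP3-dependent Rac exchange factor, stood at 1039 ± 73.6 normalized reads in control and fell to 197 ± 32.6 (SD, n = 3 each). Vav1, a guanine nucleotide exchange factor of blood cells, fell 4.19-fold. These are the pair that stayed lower under both rescalings. Gab1, a docking protein that recruits p85, fell 2.25-fold, Pik3ip1, an inhibitor of PI3K, 2.28-fold, Vav3 2.22-fold and Pik3ap1, the B cell adaptor for PI3K, 2.12-fold. Gab1, Vav3 and Pik3ap1 turned higher under both rescalings, and Pik3ip1 under the trimmed mean. Inpp5d (SHIP1), the phosphatase of PIP3 in blood cells, was the only one listed of 17 phosphoinositide phosphatases. It stood at 991 ± 39.0 normalized reads in control and fell to 477 ± 25.9 (SD, n = 3 each), but turned higher under both rescalings.

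**Figure D5:**
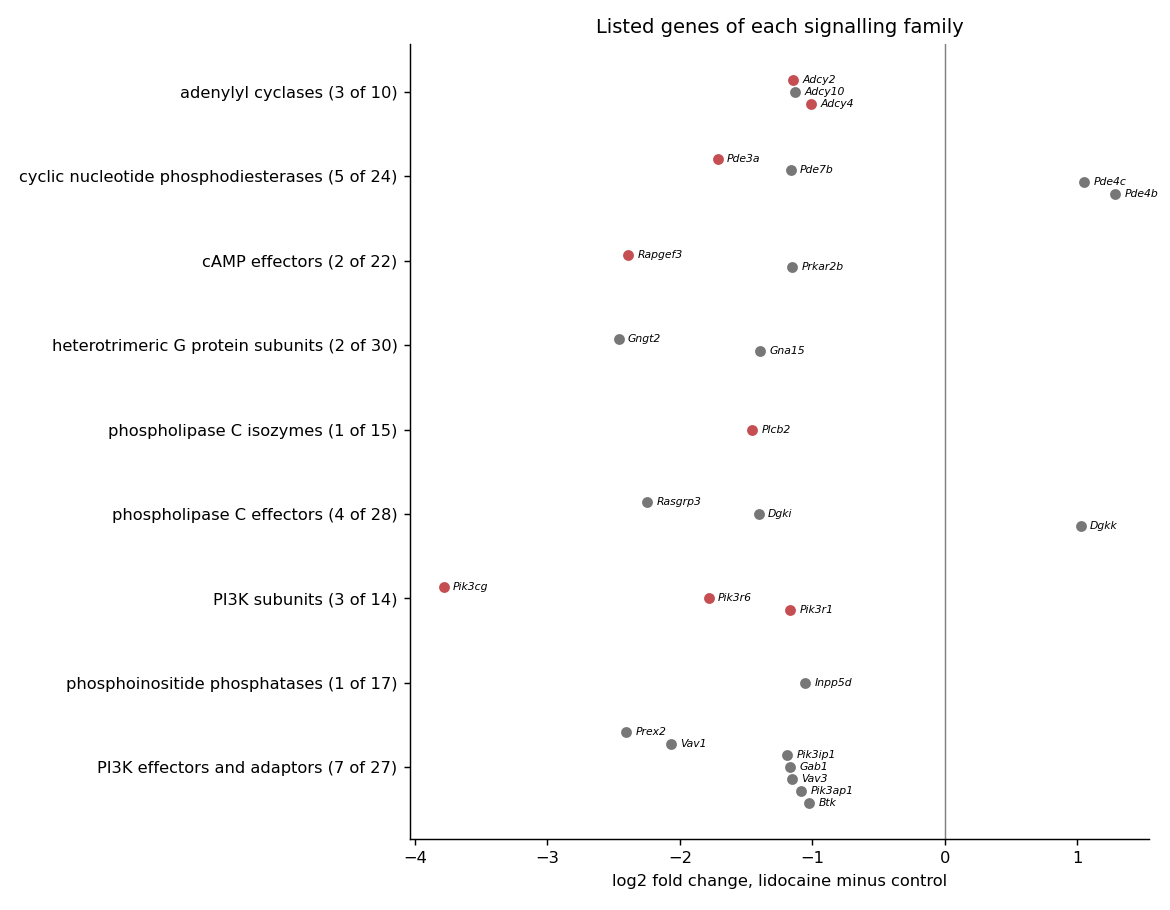
Log2 fold change, lidocaine minus control (horizontal axis), of the genes reported from the 9 pathway lists (rows, with the number listed of the number in the list), on the deposited scale, with the 8 transcripts in red and other genes in grey. Only Pde4b, Pde4c and Dgkk lie above 0.

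The listed markers of non-neuronal cells were lower with lidocaine, as these transcripts were. Markers that are not listed have no values here, so the medians and sums cover only genes selected as changed. Each sum rests most on its most abundant genes. Of 16 macrophage markers 14 were listed, all 14 were called lower with a median log2 fold change of −3.31 (−1.25 over all genes kept), and their summed level was 12179 to 12825 normalized reads in control and 1436 to 1587 with lidocaine. Cd163 and Cx3cr1 were at 0 in at least 1 lidocaine library. Endothelial markers (6 of 8 listed, median −2.25) summed to 6456 to 6921 normalized reads in control and 1774 to 1873 with lidocaine. Mural cell markers (5 of 8 listed, median −1.48) summed to 8853 to 9219.8 and 2669 to 3133, with Acta2 at 0 in at least 1 lidocaine library. Schwann cell markers (6 of 12 listed, median −1.86) summed to 40418 to 40833 and 9967 to 10369. Satellite glia markers (5 of 8 listed, median −1.85) summed to 18883 to 19324 and 3903 to 4073. Fibroblast markers (4 of 9 listed, median −2.38) summed to 102631 to 112200 and 26065 to 26548.

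Lymphocyte markers (4 of 9 listed, median −2.07) summed to 388 to 434 normalized reads in control and 61.2 to 80.5 with lidocaine. Cd4 alone gave 275, 334 and 294 normalized reads in control and 39, 45.8 and 22.1 with lidocaine, so the control sum rests mostly on 1 gene. Neutrophil markers (5 of 6 listed, 3 kept, median −2.85) summed to 153 to 253 and 15.1 to 25.3. S100a9, Elane and Cxcr2 of the neutrophil list were at 0 in at least 1 lidocaine library. Each kept marker of these 8 cell types was called lower on the deposited scale, beside 68.6% of all genes kept. Pdgfrb and Cd79b turned higher under both rescalings. The part of these cell types in the falls of the 8 transcripts was not tested.

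The listed genes whose pattern over the 6 libraries lay nearest to each transcript were taken from the pathway and marker lists, by the root mean square difference of log2 values centred per gene. This is a description over 6 libraries in 2 groups, and the size of the fall weighs most in it. No gene outside these lists was compared, and the candidates held none of the 20 sensory neuron markers. The lowest pathway gene beside Pik3cg was Gngt2 at −2.46, so only markers could lie near Pik3cg at −3.78. For Pik3cg the nearest of 73 candidates were the macrophage markers Aif1 (0.12) and C1qa (0.14). For Rapgef3 they were the macrophage marker Mrc1 (0.23) and the endothelial marker Emcn (0.28), and for Pde3a the satellite glia marker Cadm2 (0.09) and the Schwann cell marker Cdh19 (0.13). For Pik3r1 they were Gab1 (0.05) and Pik3ip1 (0.08), and for Adcy2 they were Pik3ip1 and Inpp5d (0.06 each). For Adcy4 they were Prkar2b (0.12) and Vav3 (0.13). The nearest genes of Plcb2, Adcy10 and the satellite glia marker Kcnj10, lay farther off (0.36 and 0.39). Those of Pik3r6 were Pde3a (0.22) and Cadm2 (0.23).

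Promoter windows from 250 bases before to 50 bases after the gene start were read from RefSeq sequence on build GRCr8 for the 6 of 8 genes that matched by symbol. The windows of the 2 largest falls with a sequence (Pik3cg and Rapgef3) and of the 2 most abundant transcripts (Pik3r1 and Adcy2) are shown, since they differ in composition. Each is written on the strand of its gene. Capitals mark the GC box GGGCGG, bound by Sp1-type factors, and the sequence GAGGAA, the core of sites for PU.1 (an Ets factor of myeloid cells), each on either strand. These motifs do not overlap one another in the windows shown.
Pik3cg, chr6:54529460-54529759, minus strand: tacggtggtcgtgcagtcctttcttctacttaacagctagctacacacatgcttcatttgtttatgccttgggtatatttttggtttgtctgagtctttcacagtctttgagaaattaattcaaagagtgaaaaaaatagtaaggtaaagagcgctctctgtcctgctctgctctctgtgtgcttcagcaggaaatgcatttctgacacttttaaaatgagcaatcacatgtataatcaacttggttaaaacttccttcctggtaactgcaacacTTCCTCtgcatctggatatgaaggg
Rapgef3, chr7:130776767-130777066, minus strand: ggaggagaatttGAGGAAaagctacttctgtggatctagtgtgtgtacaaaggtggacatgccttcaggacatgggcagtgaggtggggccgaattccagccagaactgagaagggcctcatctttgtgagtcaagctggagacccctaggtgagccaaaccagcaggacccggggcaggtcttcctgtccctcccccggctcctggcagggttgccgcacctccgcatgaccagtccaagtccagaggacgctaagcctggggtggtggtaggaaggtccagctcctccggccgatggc
Pik3r1, chr2:34697611-34697910, minus strand: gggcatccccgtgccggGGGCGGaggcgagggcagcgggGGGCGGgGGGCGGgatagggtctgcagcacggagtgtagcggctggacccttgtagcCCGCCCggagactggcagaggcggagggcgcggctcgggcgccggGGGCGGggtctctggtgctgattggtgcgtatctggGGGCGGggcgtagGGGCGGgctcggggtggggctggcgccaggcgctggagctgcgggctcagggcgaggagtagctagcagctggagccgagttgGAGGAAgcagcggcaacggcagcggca
Adcy2, chr1:36203804-36204103, plus strand: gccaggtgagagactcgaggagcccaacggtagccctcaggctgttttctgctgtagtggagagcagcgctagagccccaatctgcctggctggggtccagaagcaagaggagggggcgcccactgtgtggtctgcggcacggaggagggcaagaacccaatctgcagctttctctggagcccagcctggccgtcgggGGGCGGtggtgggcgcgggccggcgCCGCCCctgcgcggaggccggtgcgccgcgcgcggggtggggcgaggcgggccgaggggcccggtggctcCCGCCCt

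The Pik3cg window had a G and C content of 39.7%, below the median of 51.7% over 33469 promoter windows of the same length, whereas that of Rapgef3 had 59.7%, Adcy2 72.7% and Pik3r1 75.3%. The GC box occurred 7 times in the Pik3r1 window and 3 times in that of Adcy2, and 0 times in those of Pik3cg and Rapgef3. Of the windows not shown, that of Adcy4, the smallest fall, had 0 GC boxes (59.0% G and C). The window of Pde3a had 1 (58.7%). The GC box was present in 33.1% of all windows. GAGGAA occurred once each in the windows of Pik3cg, Rapgef3 and Pik3r1, and in 27.6% of all windows. In Pik3cg it began 25 bases after the gene start and reads TTCCTC on the strand shown. The half-site of the cAMP response element, TGACG on either strand, occurred in 0 of the 6 windows and in 21.2% of all windows. Such matches describe letters in a window and show no binding.

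The authors' deposited pathway annotation placed most of the 8 genes in the same KEGG maps. Of 754 listed genes with an annotation, 10 were in the cholinergic synapse map, and 6 of these were Adcy2, Adcy4, Plcb2, Pik3cg, Pik3r1 and Pik3r6. The same 6 genes were among 23 in the platelet activation map. The cAMP signalling map held 28 listed genes, with Adcy2, Adcy4, Pde3a, Rapgef3 and Pik3r1 among them. The Rap1 signalling map held 40 listed genes, with Adcy2, Adcy4, Rapgef3, Plcb2 and Pik3r1 among them. These maps were drawn around such enzymes, so the overlap follows from the choice of genes.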

How the data were processed

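RNA was sequenced in 3 control and 3 lidocaine libraries, grouped by the treatment labels. The submitters' processing notes list Bowtie 0.12.2, DESeq2 and rn6 (Rnor_6.0) with no role or order; annotation and read counter: not given in the sources used here. Per the file headers, the authors deposited normalized expression as log2 values, which here equal log2(normalized reads + 1), for 2125 significant genes, each with a log2 fold change and a p-value. FPKM values of the same genes were deposited by the authors in a second table. With the log2 step undone, all values were whole multiples of 1 factor per library (tolerance 0.02 reads; factors 0.872 to 1.18).

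The filter required an average of 10 normalized reads, which kept 1851 genes and left out 274. The groups were compared on log2(normalized reads + 1), which equals the deposited log2 values, by limma 3.58.1 under R 4.3.3. The fit had a variance trend and no replicate block, the test was two-sided, with the Benjamini-Hochberg adjustment taken across all 1851 genes and calls made at 0.05. A pseudocount of 1 makes the fold changes of genes with few reads too small. This step was first tried on simulated data. The deposited values are log2, and count models were not run on the reads recovered from them. The other settings concerned the pseudocount, filter, scaling, unit, variance trend, adjustment and replicate block, and the leaving out of single libraries.

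The 8 genes, the gene lists and the rule for naming genes were chosen with earlier results of these data known. From each pathway list up to 6 listed genes beside the 8 were to be named, by mean reads, and up to 3 per marker list. A gene that this rule names is not reported here. Marker lists are given as sums, with names only for markers at 0, those that turned, those nearest in pattern, and Cd4. Promoter sequences came from RefSeq (GRCr8).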

Additional observations from a re-analysis of the deposited data

Results flagged for a closer look

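In the FPKM table, the authors' deposited group value for lidocaine, a column that entered no comparison, lay above all 3 lidocaine libraries for each of the 8 transcripts. For 6 of them it also lay above the highest control library, opposite to the direction in the libraries. The value was 14.2 FPKM for Adcy2, whose libraries reached 5.82 with lidocaine and 11.7 in control. It was 58.3 FPKM for Pik3r1, whose libraries reached 19.9 and 42.2. For Adcy4 it was 3.34, for Pde3a 3.04, for Plcb2 0.633 and for Pik3r6 0.384 FPKM. How this column was made was not tested, and no fold change here rests on it.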

How the results depend on the processing

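The number of the 8 transcripts called lower was 8 under other pseudocounts, without a filter, without a variance trend, with FPKM, with the replicate block and without any single library (8 to 8). It was 3 under the trimmed mean and 3 under the median of ratios, and 5 with the interval rule, which was chosen after the data were seen. Genes called lower numbered 1269 on the deposited scale, 492 under the trimmed mean, 550 under the median of ratios and 687 with a mean of at least 100 reads, where genes called higher fell from 572 to 381 because fewer genes were tested. With a mean of at least 100 reads Plcb2 and Pik3r6 have no value, and with adjustment for all reference genes 7 of the 8 were called. Leaving out 1 library gave 1204 to 1248 genes lower and 558 to 564 higher. Log2 fold changes turned for Adcy2 (0.13 and 0.039), Adcy4 (0.26 and 0.17) and Pik3r1 (0.11 and 0.018) under the trimmed mean and the median of ratios; both centre the listed genes. With FPKM (pseudocount 0.1) Pik3cg was at −2.98, less than on the deposited scale because the pseudocount is large beside its level. Same-numbered libraries did not deviate together (r across genes −0.03, 0.01 and 0.06). This shows no pairing by number but cannot exclude it, since few libraries and only selected genes entered. The replicate block changed none of the 8 calls (1268 genes lower, 574 higher). With 11 to 21 reads for Pik3r6 and 13 to 36 for Plcb2 with lidocaine, counting error limits both.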
